A study of Mesocricetus auratus with 6 samples.

Results

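The genes described here encode the enzymes that carry out glycolysis, with 2 *Gapdh* genes among them, *Gapdh* itself and *LOC121141373*, which the study lists under the same enzyme name. Of 10 listed genes, 9 had a row among the 31593 genes measured, namely *Hk1*, *Pfkm*, *Aldoa*, *Tpi1*, *Gapdh*, *LOC121141373*, *Pgk1*, *Eno1* and *Pkm*, and *Ldha* was not analysed here. The pair was chosen by its measured values, since both genes are among those the study called different between *duper* and wild type. The other enzymes were chosen by function to stand beside the pair. Values of these genes that compare *duper* with wild type are therefore given as a description. Only differences between tissues, which did not enter the choice, are read as tests of these genes.

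RNA-seq was done on cortex, suprachiasmatic nucleus (SCN, the site of the central circadian clock in the hypothalamus) and liver of Syrian hamsters (*Mesocricetus auratus*), collected at CT15, that is 15 h on the circadian time scale. The *duper* hamsters carry a frameshift deletion in *Cry1*, which encodes a repressor of the circadian clock. They were derived from animals that also carried *tau*, were crossed to the Lakeview (LVG) ecotype and were bred to lack *tau*; wild-type hamsters were of LVG stock. All 4 *duper* hamsters were female, whereas the 4 wild-type hamsters were of both sexes, so genotype and sex cannot be told apart fully. Each cortex or SCN library was made from RNA pooled over 4 hamsters, and the reads of individual liver libraries were merged. This left 1 set of values per genotype and tissue, 6 libraries in all. Cortex, SCN and liver of a genotype were taken from 1 set of hamsters, and p-values here measure only the spread between these libraries.

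Glycolysis splits glucose into pyruvate in the cytosol and yields ATP and NADH. Neurons and glia rely on a steady supply of glucose, whereas the liver can run much of the pathway backwards to release glucose, and it uses its own forms of several of the enzymes. *Gapdh* encodes glyceraldehyde-3-phosphate dehydrogenase, the enzyme of the NADH-producing step, and is often used as a reference gene to which other messenger RNAs are scaled.

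Total estimated counts ranged from 6788947 to 85748562 per library. *Cry1*, the mutated gene, was lower in the *duper* library of every tissue, at 33.3 against 8.56 TPM in cortex (wild type first here and in all pairs of levels below), 22.9 against 8.14 TPM in SCN, and 16.8 against 5.44 TPM in liver. TPM, the unit of these levels, is a transcript abundance scaled for transcript length and library total, and was used to compare levels between genes. Markers fitted the labelled tissues: 5 cortical neuron genes summed to 928 to 1017 TPM in cortex and at most 21.4 TPM elsewhere, *Nms*, *Six6* and *Lhx1* of the SCN list were highest in the SCN libraries (*Rgs16* of that list was highest in liver, *Prok2* was under 1 TPM throughout, and *Avp* and *Vip* were not analysed here), and 6 liver genes summed to 133823 against 142759 TPM in liver. *Ttr*, a liver gene that the choroid plexus also expresses, was at 1837 against 2505 TPM in cortex and 165 against 24.1 TPM in SCN. The summed level of 5 red cell genes was lower in *duper* in each tissue, at 1429 against 826 TPM in cortex, 5647 against 2067 TPM in SCN and 3286 against 1794 TPM in liver. The summed level of 5 macrophage genes was higher in *duper*, at 149.5 against 163 TPM in cortex, 165 against 194 TPM in SCN and 262 against 427 TPM in liver. Each of the 5 was higher in *duper* in liver, but *C1qa* was lower in cortex (67.0 against 63.4 TPM) and *Cd68* in SCN (7.66 against 6.51 TPM). The part of these marker levels in any difference between genotypes given below was not tested.

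The 2 *Gapdh* genes differed in structure in the annotation. *Gapdh* had 1 transcript of 1336 bases over an annotated span of 3955 bases and lay between *Iffo1* and *Ncapd2*. *LOC121141373* had 1 transcript of 1272 bases over a span of 1272 bases, so its model held no intron, and it was annotated as protein coding between *Ntn1* and a long noncoding RNA gene, *LOC121141374*, followed by *Pik3r5*. The levels of *Ntn1* and *Pik3r5* lay between 0.698 and 8.28 TPM in all 6 libraries, against 302 to 2203 TPM for *LOC121141373*. These 4 named coding neighbours were picked after the annotation had been seen.

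*Gapdh* had a higher level in the *duper* library of each tissue. Its level was 1464 TPM in the wild-type and 2173 TPM in the *duper* cortex, 1366 against 1899 TPM for the SCN libraries, and 549 against 971 TPM for the liver libraries. *LOC121141373* ran the other way in each tissue, at 2203 against 1394 TPM in cortex, 1791 against 1302 TPM in SCN, and 716 against 302 TPM in liver. The gene with the larger value of the pair was thus *LOC121141373* in each wild-type library and *Gapdh* in each *duper* library.

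The summed level of the pair was nearly the same in both genotypes. It came to 3667 against 3567 TPM in cortex, 3157 against 3201 TPM in SCN, and 1265 against 1273 TPM in liver. On the TPM scale, the sum in brain stood apart from that in liver by far more than the genotypes stood apart within a tissue.

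**Figure D1:**
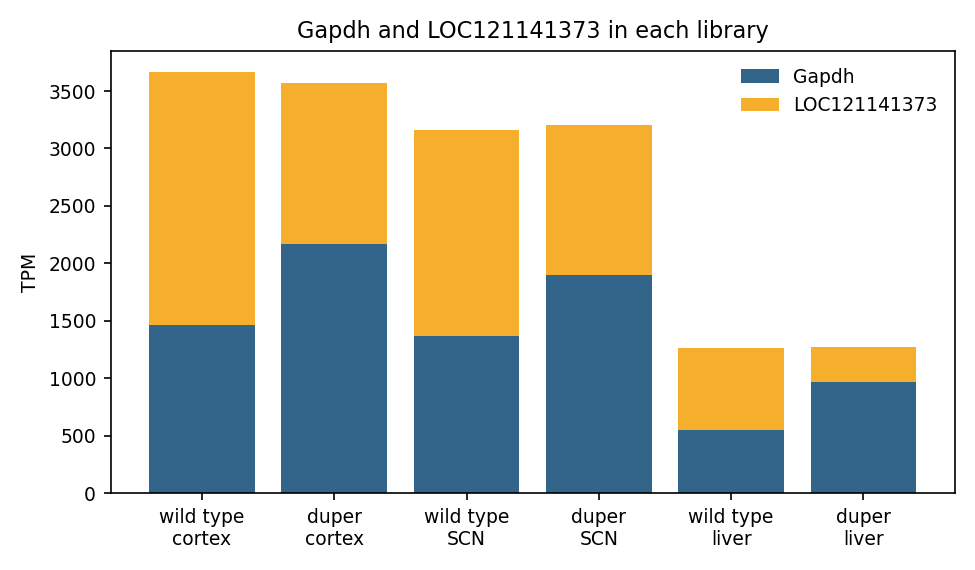
Level in TPM (vertical axis, linear from 0) of *Gapdh* (blue) and *LOC121141373* (orange), stacked, in each of the 6 libraries. The height of each bar is the sum of the pair, which was 3667 against 3567 TPM in cortex, 3157 against 3201 TPM in SCN and 1265 against 1273 TPM in liver, while the blue part was larger in *duper* in each tissue.

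Expressed as log2 of *duper* over wild type, on the TPM plus 1 scale, *Gapdh* gave 0.57 in cortex, 0.48 in SCN and 0.82 in liver. *LOC121141373* gave −0.66, −0.46 and −1.24 in the same order. Liver had the largest ratio of the 3 tissues for both genes, in opposite directions. For the sum the log2 ratio was −0.04 in cortex with a 95% counting interval of −0.07 to −0.01, 0.02 in SCN with an interval of −0.01 to 0.05, and 0.01 in liver with an interval of −0.01 to 0.03. These Clopper-Pearson intervals refer to the ratio without the added 1, treat estimated counts as counts, and cover counting error only, not the variation between hamsters.

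The share of *Gapdh* in the pair gives the same values in another form. In estimated counts it was 41.4% in wild-type cortex (95% Clopper-Pearson interval 40.5% to 42.2%) and 62.3% in *duper* cortex (61.6% to 63.0%). In SCN it was 44.7% (44.3% to 45.1%) in wild type and 60.8% (59.9% to 61.6%) in *duper*, and in liver 44.9% (44.5% to 45.3%) and 77.3% (77.0% to 77.6%). The 3 wild-type shares lay within a few points of each other, and the *duper* liver share stood above those of the *duper* brain libraries. On the TPM scale the share was higher in *duper* by 21.0 percentage points in cortex, 16.1 in SCN and 32.9 in liver.

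The division of reads between the pair was estimated rather than counted. Kallisto shares a read that fits several transcripts among them, and the estimate then need not be a whole number. With a tolerance of 0.1 read, the counts of the 7 other enzymes were whole in 6 of 6 libraries each, whereas those of *Gapdh* were whole in 4, those of *LOC121141373* in 1, and their sum in 3. Over all genes, 80.7% of the values above 0 were whole. Of 809 genes with at least 1000 counts in every library, 73.9% were whole in all 6. How many reads of the pair fitted both genes was not analysed here, and the values of either gene alone are uncertain to that extent. The sum was not whole in every library, so reads shared with transcripts outside the pair may touch it as well.

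The 7 other enzymes showed smaller ratios than either *Gapdh* gene in every tissue. *Hk1*, hexokinase 1, which phosphorylates glucose at the entry to the pathway, had 278 against 263 TPM in cortex, 201 against 218 TPM in SCN, and 2.96 against 3.51 TPM in liver. *Pfkm*, the muscle-type phosphofructokinase of the committed step, had 317 against 333 TPM in cortex, 264 against 283 TPM in SCN, and 10.9 against 8.79 TPM in liver. For both genes the liver libraries stood far below the brain libraries.

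*Aldoa*, aldolase A, which cleaves the 6-carbon sugar, had 2183 against 2143 TPM in cortex, 1636 against 1778 TPM in SCN, and 159 against 182 TPM in liver. *Tpi1*, triosephosphate isomerase, which interconverts the products of that cleavage, had 733 against 764 TPM in cortex, 585 against 630 TPM in SCN, and 110 against 104 TPM in liver. *Aldoa* was the only gene outside the pair among the top 3 of the 9 genes in the brain libraries.

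*Pgk1*, phosphoglycerate kinase 1, which makes the first ATP of the pathway right after the *Gapdh* step, had 502 against 529 TPM in cortex, 431 against 464 TPM in SCN, and 186 against 210 TPM in liver. *Eno1*, enolase 1, had 786 against 815 TPM in cortex, 848 against 868 TPM in SCN, and 179 against 202 TPM in liver. *Pkm*, pyruvate kinase M, which forms pyruvate and ATP at the end, had 1062 against 1089 TPM in cortex, 1013 against 1049 TPM in SCN, and 23.4 against 24.6 TPM in liver. The *duper* library was the higher of the pair in each tissue for all 3 genes, by ratios that stayed under the fold used below.

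**Figure D2:**
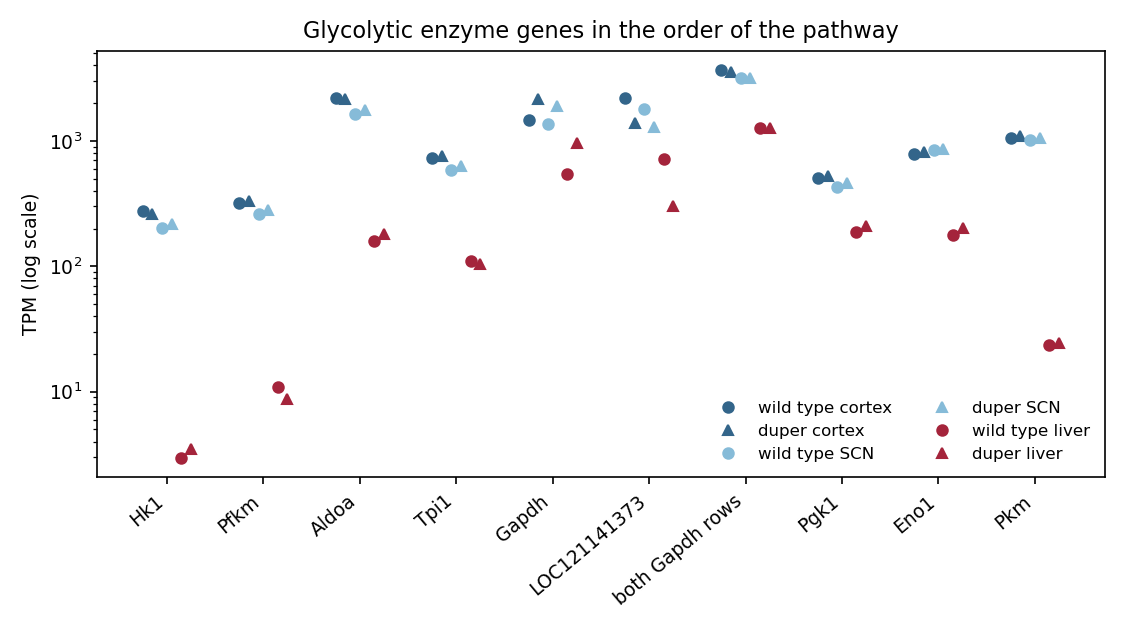
Level in TPM (vertical axis, log scale) of the 9 genes and of the summed pair, in the order of the pathway, in wild-type (circles) and *duper* (triangles) libraries of cortex (dark blue), SCN (light blue) and liver (red), 1 point per library. The genotypes lie close together for every gene except *Gapdh* and *LOC121141373*, and *Hk1*, *Pfkm* and *Pkm* are at 2.96 to 24.6 TPM in liver against 201 to 1089 TPM in the brain libraries.

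The order of the levels changed at the top with genotype and in the middle with tissue. In the 4 brain libraries *Aldoa* was second, with *LOC121141373* above it and *Gapdh* below it in wild type and the reverse in *duper*. *Pkm*, *Eno1*, *Tpi1*, *Pgk1*, *Pfkm* and *Hk1* followed in that order in all 4. In liver *Pgk1* and *Eno1* followed the pair, ahead of *Aldoa*, *Tpi1*, *Pkm*, *Pfkm* and *Hk1*, and their neighbouring values in the wild-type library, 186 and 179 TPM, were closer than the genotypes were to each other. Summed, the pair stood above each of the 7 other members in all 6 libraries. The 9 genes together held between 0.813% and 0.953% of all TPM in the 4 brain libraries, and 0.194% and 0.201% in the wild-type and *duper* liver.

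Between genotypes, the median log2 ratio of the 7 single enzymes was 0.05 in cortex, ranging from −0.08 for *Hk1* to 0.07 for *Pgk1*. It was 0.11 in SCN, from 0.03 for *Eno1* to 0.12 for *Aldoa*, and 0.17 in liver, from −0.29 for *Pfkm* to 0.19 for *Aldoa*. Over all genes that averaged 1 TPM or more in the tissue the medians were 0.02, 0.02 and −0.10. Rescaling TPM by the factors that edgeR computes moved the liver median of all genes to 0.04 and that of the 7 enzymes to 0.34, and *Tpi1* in liver from −0.07 to 0.09.

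A ratio past 0.58 in either direction, about 1.5-fold, was reached by 1 of the 9 genes in cortex (*LOC121141373*, with *Gapdh* just short of it at 0.57), where 16.0% of 18096 genes passed it. None of the 9 passed it in SCN, where 14.4% of 18305 genes did, and 2 passed it in liver (*Gapdh* and *LOC121141373*), where 15.3% of 14054 genes did. None of the 7 single enzymes passed it in any tissue. With 1 library per genotype and tissue, no test was possible within a tissue.

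**Figure D3:**
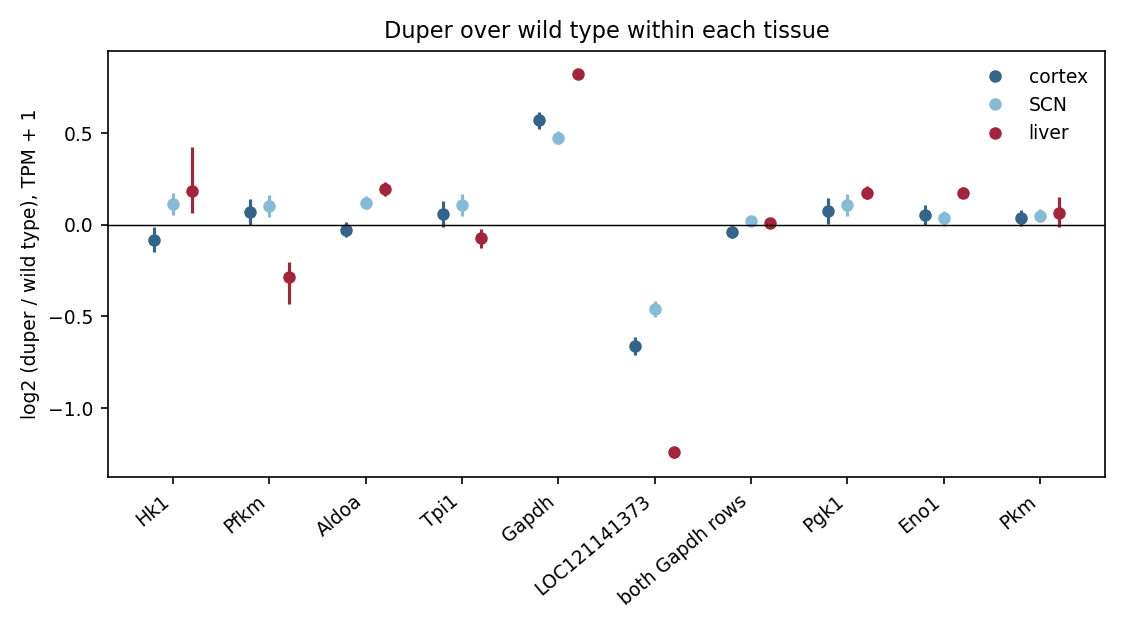
Log2 ratio of *duper* to wild type (vertical axis, TPM plus 1) of the 9 genes and of the summed pair in cortex (dark blue), SCN (light blue) and liver (red). Vertical lines are 95% Clopper-Pearson intervals of the ratio without the added 1 and cover counting error only. *Gapdh* lies at 0.48 to 0.82 and *LOC121141373* at −1.24 to −0.46, while the sum lies at −0.04 to 0.02.

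Across the 3 tissues, a model with tissue and genotype in edgeR gave a log2 difference of *duper* minus wild type of 0.67 (SE 0.17) for *Gapdh* and of −0.74 (SE 0.16) for *LOC121141373*. For the summed pair, fitted in place of the 2 genes, it was 0.06 (SE 0.17), and for the 7 single enzymes it ranged from −0.01 for *Pfkm* to 0.16 for *Pgk1*. A gene was called where its log2 difference was over 0.58 in size and its p, adjusted by Benjamini-Hochberg, under 0.05; this fit called 0 of the 9 genes and 15 of 19780 genes, or 0.0758%. DESeq2 and the likelihood ratio test of edgeR each called both *Gapdh* genes, in opposite directions, out of 41 and 136 genes called in all. This contrast chose the pair, so these calls are no independent evidence.

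Other genes of glucose breakdown, from a list of 42 that also covers glucose and lactate transporters and the entry of pyruvate into mitochondria, were not called between genotypes, as was the case for nearly all genes. Of 38 tested, 0 were called by edgeR, where 0.0758% of all genes were, and 0 had an unadjusted p under 0.05, where 696 of 19780 genes did. DESeq2 and the likelihood ratio test also called 0 of them, with 41 of 21072 and 136 of 19780 genes called in all. limma called 0 of 18558 genes, so it could call none of the list. With so few calls over all genes, these counts do not set the list apart. Their median log2 difference was 0.02, against 0.01 over all genes.

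Most of the single enzymes were lower in liver than in brain. In liver against the mean of cortex and SCN, 5 of the 9 genes were called lower, where 32.6% of all genes were called lower and 33.6% higher, and none of the 9 was called higher. *Hk1* was lower by the most, with a log2 difference of −4.63 (SE 0.19, adjusted p = 5.5e-07), followed by *Pkm* at −3.89 (SE 0.18, adjusted p = 1.1e-06) and *Pfkm* at −3.32 (SE 0.14, adjusted p = 7.9e-07). These are the enzymes of the 3 steps that are not run backwards when glucose is made. *Aldoa* was at −1.92 (SE 0.18, adjusted p = 4.9e-05) and *Tpi1* at −1.08 (SE 0.12, adjusted p = 0.00015). In bulk tissue, fewer cells of a type and less RNA per cell cannot be told apart.

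The other 4 genes were not called in either direction on this scale. *Eno1* was at −0.55 (SE 0.16, adjusted p = 0.0154), short of the fold, and it was called lower in 6 of 14 alternative fits. Those were DESeq2 (−0.64), at least 10 counts in every library (−0.61), the fits without the *duper* SCN library (−0.59) or the *duper* liver library (−0.72), and the pair of scalings described next. *Pgk1* was at 0.30 (SE 0.13, adjusted p = 0.0798), *Gapdh* at 0.36 (SE 0.18, adjusted p = 0.103) and *LOC121141373* at −0.24 (SE 0.17, adjusted p = 0.259). The summed pair was at 0.16 (SE 0.18, adjusted p = 0.443). Without the wild-type liver library *Gapdh* was called higher in liver, at 0.62 (adjusted p = 0.0005), so that call was decided by 1 library.

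These differences depend on how liver and brain are scaled to each other. The fit used TMM factors, which centre the bulk of the genes, and left the median of all genes at 0.02. Scaled by library size alone, the median of all genes was −1.22, and 11471 of 19780 genes were called lower in liver. All 9 genes were among them, *Gapdh* at −0.88 and *Pgk1* at −0.95, and the pair was at −1.08. In limma on log2(TPM + 1) the median of all genes was −1.21, and 11992 of 18558 genes were called lower. All 9 were again among them, with the pair at −1.42. A call of lower was thus the usual outcome for a gene under either scaling. *Hk1*, *Pkm*, *Pfkm*, *Aldoa* and *Tpi1* were called lower in each of 14 alternative fits, whereas the direction of *Gapdh*, *Pgk1* and the pair depended on the scaling. In TPM rescaled by TMM factors, *Gapdh* was at 0.028, but *Pgk1* was at −0.034 and the pair at −0.17.

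**Figure D4:**
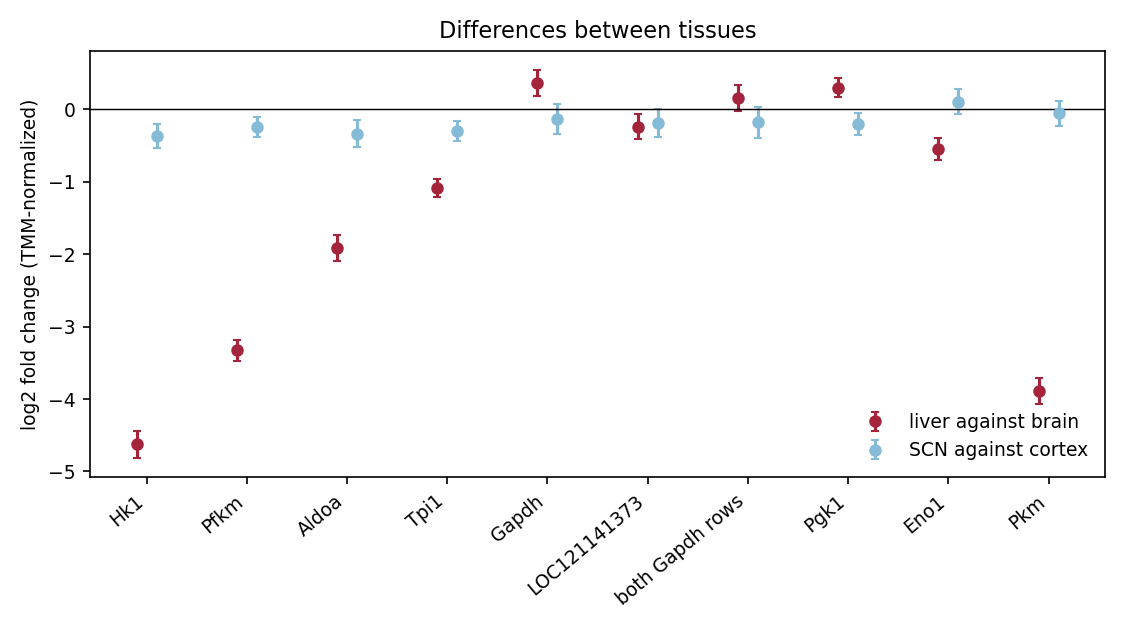
Log2 difference (vertical axis, TMM-normalized) of liver against the mean of cortex and SCN (red) and of SCN against cortex (light blue) for the 9 genes and the summed pair; bars are 1 SE. *Hk1*, *Pfkm* and *Pkm* lie between −4.63 and −3.32 in liver, *Gapdh*, *LOC121141373*, their sum and *Pgk1* between −0.24 and 0.36, and all SCN values between −0.37 and 0.11.

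The wider pathway list held genes called in both directions between tissues. Of its 38 tested genes, 12 were called higher and 19 lower in liver, beside the 33.6% and 32.6% of all genes called in those directions. Among the higher were *Pklr*, the liver and red cell pyruvate kinase, with 122 to 128 TPM in liver and 0.119 to 0.718 TPM in brain (log2 difference 9.94, SE 0.26), and *Slc2a2*, the liver glucose transporter (10.90, SE 0.20). Among the lower were *Aldoc* (−11.40, SE 0.36) and *Eno2* (−9.41, SE 0.35), the brain forms of aldolase and enolase, and *Slc2a1* (−4.68, SE 0.17) and *Slc2a3* (−3.96, SE 0.30), the glucose transporters of the blood-brain barrier and of neurons. Each of these 6 had an edgeR adjusted p under 0.05.

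The transcripts of *Pkm* and of *Pfkm* held different shares of their gene in liver and brain. The *Pkm* transcript of 2302 bases held 46.5% to 50.2% of *Pkm* TPM in the 4 brain libraries and 90.1% and 90.2% in the liver libraries. The groups did not overlap, and the 2-sided exact permutation test on this comparison, which was picked after its values were seen, gave p = 0.133, the smallest that 2 against 4 libraries allow. The *Pfkm* transcript of 3058 bases held 32.7% and 24.7% of *Pfkm* TPM in liver and 0.31% to 1.64% in brain. The genotypes shared these patterns.

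No member was called between SCN and cortex. In SCN against cortex 0 of the 9 genes were called, where 3.77% of all genes were called higher and 6.80% lower. In edgeR 0 of the 9 had an unadjusted p under 0.05, where 5114 of 19780 genes did. DESeq2, limma and the likelihood ratio test also called 0 of the 9. They called 2431 of 18031, 1777 of 18558 and 3393 of 19780 genes in all. With only 9 genes, 0 calls is not far from these shares. The log2 differences ranged from −0.37 for *Hk1* (SE 0.17, adjusted p = 0.221) to 0.11 for *Eno1* (SE 0.18, adjusted p = 0.766), and the summed pair was at −0.18 (SE 0.21, adjusted p = 0.655). Of the 38 pathway genes, *Adpgk*, an ADP-dependent glucokinase, was called higher in SCN (0.76, SE 0.19, adjusted p = 0.0488) and *Tigar*, a phosphatase that restrains glycolysis, lower (−1.05, SE 0.18, adjusted p = 0.0133). Neither was called with limma or without the *duper* cortex, wild-type cortex or wild-type SCN library, and *Adpgk* was also not called with a length offset.

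Genes whose pattern over the 6 libraries was nearest to each *Gapdh* gene were found by the Euclidean distance of log2(TPM + 1), centred on each gene's mean, among genes averaging 10 TPM or more. Nearest to *Gapdh* were *LOC101825013* (distance 0.38) and *LOC101829732* (0.42). Nearest to *LOC121141373* were *LOC106022542* (0.27), *LOC110343743* (0.51) and *Cib2* (0.56). For the summed pair they were *Slc9a8* (0.08), *Rbbp7* (0.09) and *Golt1b* (0.11), and *Pgk1* (0.23) was the nearest of the single enzymes, at place 124 of 11015. *Eno1*, the next of the enzymes, stood at place 3217, and *Hk1*, the farthest, at place 9752. These distances are a description over 6 libraries that share hamsters between tissues.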

How the data were processed

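RNA of cortex, SCN and liver of *duper* and wild-type hamsters was sequenced from stranded mRNA libraries. Transcript abundance was estimated by the authors with Kallisto (version not given in the sources used here) and added up to genes by tximport. The deposited files hold estimated counts, which are not normalized, and TPM, at gene and transcript level. The study names MesAur2.0 as its reference; gene names, transcript membership and neighbours were taken from the BCM_Maur_2.0 annotation, to which 31590 of 31593 symbols and 67818 of 67818 transcripts matched, and no coordinates are given. The number of deposited columns of samples left unused in the gene tables was 0.

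The members and gene lists were chosen with earlier results of these data known. The genes named are the members, their summed pair, the pathway list, and the 3 genes nearest in pattern to *Gapdh*, *LOC121141373* and the sum; some genes under this rule are not reported here. Copies of the other members and the sequences of the pair were not analysed here.

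For tests between tissues and genotypes, the estimated counts were rounded and fitted by edgeR 4.0.16 under R 4.3.3, using TMM, filterByExpr by tissue and the quasi-likelihood F test, in a model of tissue and genotype over the 6 libraries, with Benjamini-Hochberg adjustment over 19780 genes. The fit left 2 residual degrees of freedom, and the 3 tissues stood in for replicates of a genotype. A standard error is the absolute log2 difference divided by the square root of F. The model was refitted with the pair summed. TMM factors ranged from 0.532 to 1.42. Alternatives were DESeq2 1.42.0, limma 3.58.1 on log2(TPM + 1), the likelihood ratio test, other filters and scalings, a length offset, no covariate term, and each library left out. Ratios within a tissue and intervals were computed with Python 3.11.15, scipy 1.17.1, numpy 2.4.6 and pandas 2.3.3, with plots in matplotlib 3.10.9.

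The liver against brain fit was tested on simulated counts for 19780 genes, of which 100 were changed 2-fold and 100 changed 4-fold in liver. The rest had the same mean in every tissue. With gene-wise dispersions it found 91 of 100 genes changed 4-fold and 56 of 100 changed 2-fold, and 18 of its 165 calls were unchanged genes, more than the nominal 5 percent. With trended dispersions it found 97 and 70, and 9 of 176 calls were unchanged genes. Calls near the threshold are therefore treated as less certain than their adjusted p states. The real contrast called 13089 of 19780 genes, far more than were changed in the simulation, so the share of unchanged genes among its calls may differ.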

Additional observations from a re-analysis of the deposited data

Results flagged for a closer look

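Between genotypes, 3 single enzymes had log2 ratios of *duper* to wild type on opposite sides of 0 in 2 tissues, with counting intervals that left out 0. For *Pfkm* the ratio was lower in liver than in cortex by −0.36 and than in SCN by −0.39. Its interval in cortex left out 0 only narrowly, with a lower limit of 0.00016. With TPM rescaled by TMM factors, *Pfkm* went from 0.070 to 0.059 in cortex and from −0.29 to −0.14 in liver. For *Hk1* the ratio was higher than in cortex by 0.27 in liver and by 0.19 in SCN. For *Tpi1* the ratio in liver minus that in SCN was −0.18, and with TPM rescaled by TMM factors *Tpi1* in liver was at 0.09, on the same side as SCN. With 1 library per genotype and tissue none of these differences was tested, and the intervals cover counting error only. No group held enough libraries for a check of single libraries that stand apart.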

How the results depend on the processing

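The calls of *Hk1*, *Pkm*, *Pfkm*, *Aldoa* and *Tpi1* as lower in liver, and the absence of calls among the 9 genes in SCN against cortex, held under every alternative run. With library size in place of TMM and with limma on log2(TPM + 1), 9 of 9 genes were called lower in liver. So were 11471 of 19780 and 11992 of 18558 of all genes in those fits. The liver difference then changed sign for *Gapdh* (−0.88 and −1.21), *Pgk1* (−0.95 and −1.27) and the pair (−1.08 and −1.42). As levels in TPM, *Gapdh* in liver over brain was at −1.22 on the log2 scale and at 0.028 after TMM rescaling. *Pgk1* was at −1.28 and −0.034, and the pair at −1.42 and −0.17, so these stayed below 0 on both scales. In SCN against cortex, *Gapdh* was at 0.028 and *Pkm* at 0.11 with library size. With 1 library left out *Gapdh* lay between −0.31 and 0.015, the latter without the *duper* SCN library, and *Pkm* between −0.12 and 0.0019, the latter without the wild-type cortex library, and none of these values was called. That comparison called 2091 genes, 3393 by the likelihood ratio test and 356 to 3619 with 1 library left out. Its 2 pathway calls became 4 with no filter beyond 1 count and by the likelihood ratio test, 1 with a length offset, 0 with limma, and 0 to 5 with 1 library left out. The 15 genes called between genotypes became 41 with DESeq2, 48 with no filter beyond 1 count, 1 with at least 10 counts in every library, 136 by the likelihood ratio test, 0 with limma and with no tissue term, and 4 to 58 with 1 library left out. Where a library was left out, the lone library of its group was assumed to vary like the others. The causes were not tested. A sum over every gene of the *Gapdh* enzyme name was not run. No paired analysis was possible because each group has 1 library, other than the tissue and genotype terms of the model itself, which compare genotypes within tissues and tissues within a set of hamsters.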

Other observations

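Among the pathway genes, *Slc16a1*, a lactate and pyruvate transporter, had 3.37 TPM in the wild-type liver and 12.3 TPM in the *duper* liver, a 3.64-fold ratio. In the other tissues its ratio was smaller, with 43.7 and 52.3 TPM in cortex and 40.6 and 33.2 TPM in SCN (wild type first). It was picked after its values were seen, it was not called across tissues, and no test within liver was possible with 1 library per genotype.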
